A study of Mus musculus with 8 samples.

Results

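Cholesterol synthesis was followed through 8 genes, 7 enzymes of the pathway (Hmgcs1, Idi1, Fdft1, Sqle, Lss, Cyp51 and Dhcr7) and Insig1, which restrains the pathway, in fully grown mouse oocytes with and without Dicer. Every probe set whose only gene symbol in the platform annotation was one of these 8 was taken, which gave 20 probe sets for 8 genes, of 45037 probe sets and 18193 genes on the array. The members hold no uptake gene, so receptors for cholesterol-carrying lipoproteins were followed as a separate list, together with the other enzymes and the regulators of the pathway. All 8 arrays were used: 4 from Dicer knockout mice and 4 from wild-type mice, 1 array per mouse. Both groups were females on a mixed 129/C57BL6 background that had been primed with equine chorionic gonadotropin, a hormone that drives follicle growth. From each mouse, 20 germinal vesicle-stage oocytes, which are arrested before the first meiotic division, were stripped of cumulus cells with a pipette and their RNA was amplified in 2 rounds. Dicer is the enzyme that cuts microRNAs and small interfering RNAs from their precursors. The labels give the genotype only as Dicer knockout or wild type, and the promoter of any Cre, the deleted exons and the age of the mice are not given in the sources used here.

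Cells make cholesterol from acetyl-CoA in a long chain of steps: the mevalonate part of the pathway builds isoprene units, squalene is assembled from them and closed into lanosterol, and lanosterol is trimmed to cholesterol. Transcription of most of these enzymes is driven by the SREBP factors, which SCAP escorts to the Golgi for cleavage and which the INSIG proteins hold back in the endoplasmic reticulum when sterols are plentiful. Mouse oocytes are known to be poor in several of these enzymes and to receive cholesterol from the cumulus cells around them, whose own synthesis is promoted by factors from the oocyte.

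Promoter windows are shown for 3 of the 8 genes because these genes stood differently in the comparison (Idi1 fell, Hmgcs1 did not pass the test, Dhcr7 rose). Hmgcs1 alone of the 3 holds the SREBP motif searched, and all 3 hold the CCAAT box, to which NF-Y, the known partner of SREBP, binds. A window without a match to this motif may still hold a site that SREBP binds. The window of Insig1, a classical SREBP target, had no match either. Each window runs from 250 bases before to 50 bases after an annotated start, 5′ to 3′ on the gene's strand, from RefSeq on GRCm38.p6. Capitals mark matches on either strand to the sterol regulatory element TCACNCCAC, the CCAAT box CCAAT and the GC box GGGCGG, to which Sp1 binds. Idi1 is at chr13:8885356-8885655 on the plus strand, Hmgcs1 at chr13:119690101-119690400 on the plus strand, and the Dhcr7 window at chr7:143829964-143830263 on the plus strand is the third of 3 for that gene and the one of them that holds a CCAAT box.
Idi1: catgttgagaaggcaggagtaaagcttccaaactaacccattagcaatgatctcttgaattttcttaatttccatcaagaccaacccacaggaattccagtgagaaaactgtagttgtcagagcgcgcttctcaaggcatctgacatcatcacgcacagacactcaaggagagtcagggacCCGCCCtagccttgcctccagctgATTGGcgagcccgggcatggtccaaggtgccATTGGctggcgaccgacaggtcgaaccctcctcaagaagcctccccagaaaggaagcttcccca
Hmgcs1: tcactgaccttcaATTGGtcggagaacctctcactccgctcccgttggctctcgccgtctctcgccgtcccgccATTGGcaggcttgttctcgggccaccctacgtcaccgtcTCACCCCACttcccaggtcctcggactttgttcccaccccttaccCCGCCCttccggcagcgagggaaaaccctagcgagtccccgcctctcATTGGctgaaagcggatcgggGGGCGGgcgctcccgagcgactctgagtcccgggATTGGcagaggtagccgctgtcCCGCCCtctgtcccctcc
Dhcr7: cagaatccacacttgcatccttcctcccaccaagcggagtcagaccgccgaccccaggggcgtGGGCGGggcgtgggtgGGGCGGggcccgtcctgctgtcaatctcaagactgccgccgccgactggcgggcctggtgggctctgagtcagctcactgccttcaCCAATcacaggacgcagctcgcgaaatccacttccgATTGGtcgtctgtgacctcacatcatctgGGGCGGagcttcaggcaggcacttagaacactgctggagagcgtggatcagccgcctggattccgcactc

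Of the 8 genes, 6 had a window in the RefSeq table (8 windows in all), and Sqle and Fdft1 are named only. The sterol regulatory element was found in 1 of these 6 genes, Hmgcs1, where it begins at base 114 of the window shown and also matches the stricter spelling TCACCCCAC. Over all 32851 promoter windows of the same length, 1.24% held TCACNCCAC and 0.551% held TCACCCCAC. A CCAAT box was present in 6 of the 8 windows of the members and in 37.4% of all windows, and a GC box was present in 7 of the 8 and in 35.7% of all windows. Counted by gene, each of the 6 genes had both boxes in at least 1 window. Among 14 windows of 13 other genes from the enzyme lists, 0 held TCACNCCAC, 11 held a CCAAT box and 11 held a GC box. The motifs searched do not overlap one another in the windows shown. The gene that fell (Idi1), the gene that rose (Dhcr7) and 4 genes that did not pass (Hmgcs1, Lss, Cyp51 and Insig1) all had CCAAT and GC boxes.

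Values are the deposited log2 signals per probe set, so a difference of 1 is a 2-fold difference in signal, and array medians lay between 6.35 and 6.43. Differences are Dicer knockout minus wild type with the standard error and adjusted p of limma, adjusted over all 45037 probe sets, and a gene rose or fell where adjusted p was under 0.05. A gene with several probe sets is represented by its brightest. Correlations between arrays of 1 group were 0.991 to 0.995 and those between groups 0.980 to 0.987, and no 2 arrays were identical. Wild-type array 1 stood apart from the other wild-type arrays: in a fit without it, 496 genes were at least 2-fold higher in Dicer knockout arrays, and at 374 of them (75.4%) this array read above all other wild-type arrays, against 10.2% to 14.5% in the same count for the other wild-type arrays. For the called genes of the pathway lists, values without wild-type array 1 are given beside the results, and Mvd, Nsdhl, Srebf1 and Scd2 were the ones of them that no longer passed without it. Dicer1 itself read higher in the arrays labelled Dicer knockout at both of its probe sets, by 1.19 ± 0.0789 and 0.69 ± 0.102 (limma adjusted p = 2.12e-05 and 0.0017), and with the deleted exons not given these probe sets do not check the genotype.

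Oocyte-defining markers (12 genes, among them Zp1, Zp2, Zp3, Gdf9 and Bmp15) were bright in every array, with a summed signal of 17.33 to 17.41 in Dicer knockout and 17.39 to 17.46 in wild type on the log2 scale. None of the 12 rose and 4 fell, Zar1, Kit, Dppa3 and Figla, with differences of −0.30 to −0.61 (33.3% called, against 21% of all genes). Cumulus and granulosa markers were lower in Dicer knockout oocytes: of 22 measured markers 0 rose, 11 fell and 20 had a negative difference, with a median difference of −0.40. Of the markers 50% were called, against 21% of all genes, and over all genes 9027 of 18193 had a negative difference. Their summed signal on the log2 scale was 13.23, 12.99, 12.91 and 13.25 in the Dicer knockout arrays, against 14.05, 13.62, 13.48 and 14.08 in the wild-type arrays, so the groups did not overlap (exact two-sided permutation p = 0.0286, the smallest that 4 against 4 arrays allow, n = 4 each). Cumulus cells make cholesterol, so this difference stands beside every sterol gene below, and its part in them was not tested. The fall did not pass at every marker: 11 of the 22 fell, and Amh, Foxl2 and Kitl, picked from the rest, differed by −0.02, −0.01 and −0.09. At their brightest probe sets Amh averaged 7.26 in Dicer knockout and 7.28 in wild type, and Foxl2 7.76 and 7.77. Low signals are compressed, so small differences at such levels say little about whether this RNA changed. In bulk RNA, fewer cumulus cells, less RNA per cell and a change in the oocyte's own transcripts of these genes cannot be told apart. Markers of theca, stroma, vessels and blood summed to 10.81 to 10.98 in Dicer knockout and 10.91 to 11.04 in wild type.

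Of the 8 genes, 2 fell in Dicer knockout oocytes, Idi1 and Sqle, 1 rose, Dhcr7, and 5 did not pass the test, Hmgcs1, Fdft1, Lss, Cyp51 and Insig1. This is 37.5% of the genes, where 21% of all genes were called (8.18% rose and 12.8% fell). Their median difference was −0.13, against 0.003 over all genes, and their median absolute difference was 0.20, against 0.16 over all genes. Of the 20 probe sets, 2 rose and 3 fell (25%), against 16.1% of all probe sets (6.82% rose and 9.31% fell). At the representative probe set, Dicer knockout and wild-type arrays did not overlap for 3 of the 8 genes, the 3 that were called, where 26.2% of all genes did not overlap. Over probe sets, 5 of 20 did not overlap, where 21.2% of all probe sets did not overlap. The direction was not shared: the genes that fell act in the isoprene and squalene steps, and the gene that rose acts in the last step. With a mean over each gene's probe sets in place of the brightest, a second gene, Cyp51, also rose.

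**Figure D1:**
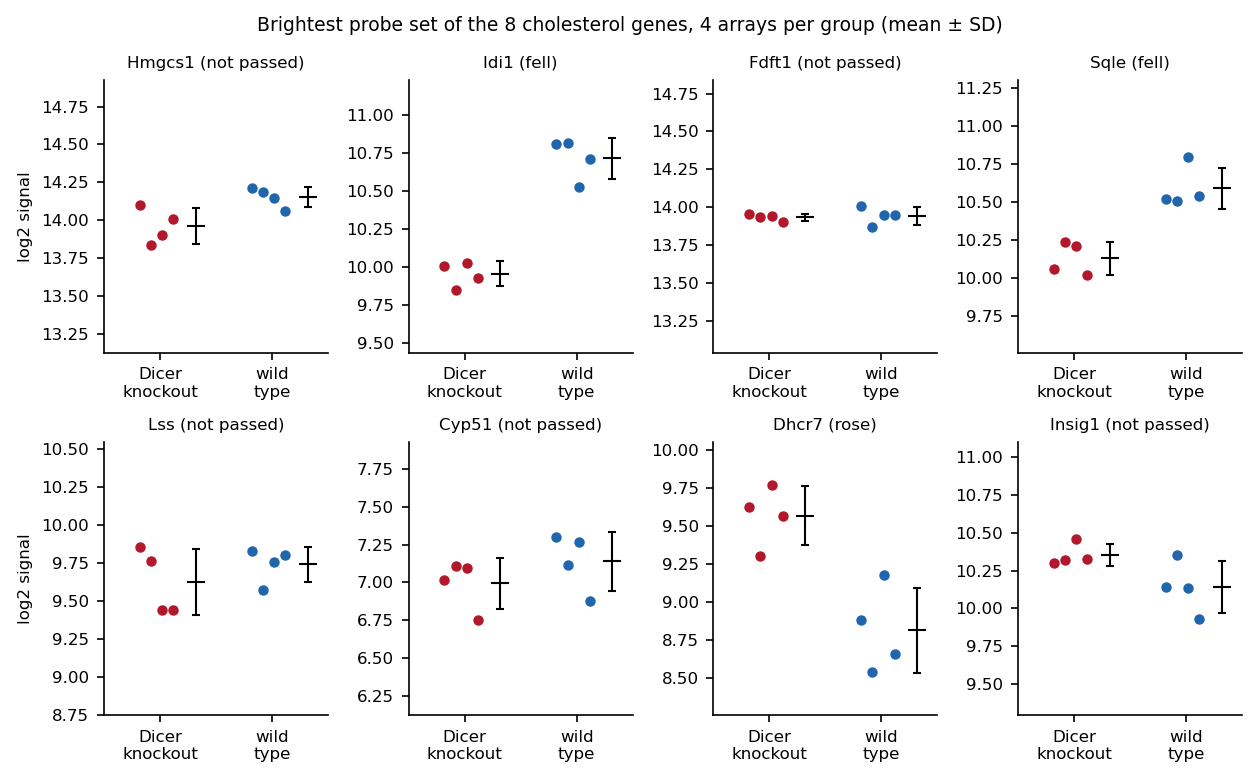
Deposited log2 signal (vertical axis, the same span in every panel) of the brightest probe set of each of the 8 genes; points are single arrays, 4 of Dicer knockout (left) and 4 of wild type (right), and black marks are the mean ± SD. Idi1 and Sqle lie lower and Dhcr7 higher in all 4 Dicer knockout arrays, with no overlap, and the other 5 genes overlap.

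Hmgcs1 makes HMG-CoA, an early intermediate of the mevalonate part, and is encoded on chromosome 13. Its brightest probe set, 1433443_a_at, read 14.10, 13.84, 13.90 and 14.01 in the Dicer knockout arrays, against 14.21, 14.19, 14.14 and 14.06 in the wild-type arrays. Of the Dicer knockout arrays, 3 were below all wild-type arrays and array 1 lay within the wild-type range. The means were 13.96 ± 0.118 in Dicer knockout and 14.15 ± 0.0668 in wild type (SD, n = 4 each). The difference of −0.19 ± 0.0796 (95% interval −0.37 to −0.01) did not pass the limma test (adjusted p = 0.147). Probe sets 1433445_x_at and 1433444_at gave −0.20 and −0.14, and 1433446_at gave −0.01. The remaining Hmgcs1 probe set, 1441536_at, averaged 3.16 in Dicer knockout and 3.29 in wild type, which is within the 3.15 to 7.06 at which 13 probe sets of Y-linked genes read in these female samples. The top of this range is a single Sry probe set, the next highest read 5.30 and the median was 3.81. Here and below, a mean between 5.30 and 7.06 lies within the range only through that Sry probe set.

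Idi1 converts isopentenyl diphosphate into its reactive isomer, the step from which all longer isoprenoids are built, and also lies on chromosome 13. Probe set 1451122_at read 10.01, 9.85, 10.03 and 9.93 in the Dicer knockout arrays, against 10.81, 10.82, 10.52 and 10.71 in the wild-type arrays. Every Dicer knockout array was below every wild-type array, and the gap between the groups was wider than the spread within either. The means were 9.95 ± 0.0823 in Dicer knockout and 10.72 ± 0.137 in wild type (SD, n = 4 each), a difference of −0.76 ± 0.0865 (95% interval −0.96 to −0.57, limma adjusted p = 0.000373). The signal in Dicer knockout was 0.589 times that in wild type. The other Idi1 probe set, 1423804_a_at, read 8.57, 8.28, 8.86 and 8.46 in the Dicer knockout arrays, against 9.39, 9.45, 9.16 and 8.90 in the wild-type arrays. It also fell, by 0.68 on the log2 scale (SE 0.152, limma adjusted p = 0.0136), with no overlap. Among the representative probe sets of the 8 genes its absolute difference was close to that of Dhcr7 and larger than the other 6. Without wild-type array 1 its probe sets gave −0.73 and −0.63 (limma adjusted p = 0.00129 and 0.0365).

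Fdft1, squalene synthase, joins farnesyl units into squalene and so commits the pathway to sterols. The brightest of its 4 probe sets, 1438322_x_at, averaged 13.93 ± 0.0217 in Dicer knockout and 13.94 ± 0.0575 in wild type (SD, n = 4 each). The difference was −0.01 with a 95% interval of −0.15 to 0.13 (limma adjusted p = 0.945). Its other probe sets differed by 0.003, 0.03 and −0.04, and none passed. The interval of the brightest probe set leaves out a fall as large as that of Idi1 or of Sqle.

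Sqle, squalene epoxidase, carries out the first oxygen-dependent step after squalene and is encoded on chromosome 15. Its single probe set, 1415993_at, read 10.06, 10.23, 10.21 and 10.02 in the Dicer knockout arrays, against 10.52, 10.51, 10.80 and 10.54 in the wild-type arrays. All Dicer knockout arrays were below all wild-type arrays, and wild-type array 3 was the highest. The means were 10.13 ± 0.109 in Dicer knockout and 10.59 ± 0.136 in wild type (SD, n = 4 each), a difference of −0.46 ± 0.0907 (95% interval −0.67 to −0.26, limma adjusted p = 0.00745), or 0.726 times the wild-type signal. Without wild-type array 1 the difference was −0.485 (limma adjusted p = 0.0134).

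Lss, lanosterol synthase, closes the sterol rings. Its brightest probe set, 1420013_s_at, read 9.85, 9.76, 9.44 and 9.44 in the Dicer knockout arrays, against 9.83, 9.58, 9.76 and 9.81 in the wild-type arrays. The groups overlapped, with Dicer knockout arrays 3 and 4 lowest and array 1 highest of the 8. Its 3 probe sets differed in sign: −0.12 (95% interval −0.37 to 0.14), −0.19 for 1420014_at, and 0.36 (95% interval 0.03 to 0.68) for 1426913_at. None passed the limma test (adjusted p = 0.556, 0.166 and 0.141). The means of 1420014_at and 1426913_at lie within the range of the Y-linked probe sets, though above the second highest of them (5.30).

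Cyp51, lanosterol demethylase, removes the first methyl group from lanosterol, and its probe sets disagreed. The brightest, 1450646_at, read 7.02, 7.11, 7.10 and 6.75 in the Dicer knockout arrays, against 7.30, 7.12, 7.27 and 6.87 in the wild-type arrays, and its difference of −0.15 (95% interval −0.41 to 0.12) did not pass (limma adjusted p = 0.471). Its means, 6.99 in Dicer knockout and 7.14 in wild type, lie close to the top of the range of the Y-linked probe sets, 7.06. Probe set 1422533_at read 6.59, 6.71, 6.34 and 5.77 in the Dicer knockout arrays, against 5.71, 4.81, 5.46 and 5.21 in the wild-type arrays. For this probe set all Dicer knockout arrays were above all wild-type arrays, although Dicer knockout array 4 and wild-type array 1 nearly met. The means were 6.35 ± 0.417 in Dicer knockout and 5.30 ± 0.385 in wild type (SD, n = 4 each), and it rose by 1.05 ± 0.233 (2.08-fold, limma adjusted p = 0.0133). Both means lie within the range of the Y-linked probe sets in these females, whose top is a single Sry probe set (the next highest read 5.30 and the median 3.81), and the probe set is below the median level of the arrays. Without wild-type array 1 it rose by 1.19 (limma adjusted p = 0.0104). The dimmest probe set, 1422534_at, averaged 3.76 in Dicer knockout and 3.60 in wild type and did not pass.

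Dhcr7, encoded on chromosome 7, reduces 7-dehydrocholesterol to cholesterol in the last step of the pathway. Its single probe set, 1448619_at, read 9.63, 9.31, 9.77 and 9.56 in the Dicer knockout arrays, against 8.88, 8.54, 9.17 and 8.66 in the wild-type arrays. All Dicer knockout arrays were above all wild-type arrays, with Dicer knockout array 2 and wild-type array 3 nearest to each other. The means were 9.57 ± 0.195 in Dicer knockout and 8.81 ± 0.281 in wild type (SD, n = 4 each), a rise of 0.76 ± 0.148 (95% interval 0.43 to 1.09, 1.69-fold, limma adjusted p = 0.00723). Without wild-type array 1 it rose by 0.78 (limma adjusted p = 0.0153).

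Insig1, encoded on chromosome 5, binds SCAP and holds SREBP in the endoplasmic reticulum, and is itself a classical SREBP target. Its single probe set, 1454671_at, read 10.30, 10.32, 10.46 and 10.33 in the Dicer knockout arrays, against 10.14, 10.35, 10.14 and 9.93 in the wild-type arrays. Wild-type array 2 lay among the Dicer knockout arrays and the other wild-type arrays lay below them. The difference of 0.21 ± 0.0948 did not pass (limma adjusted p = 0.179).

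**Figure D2:**
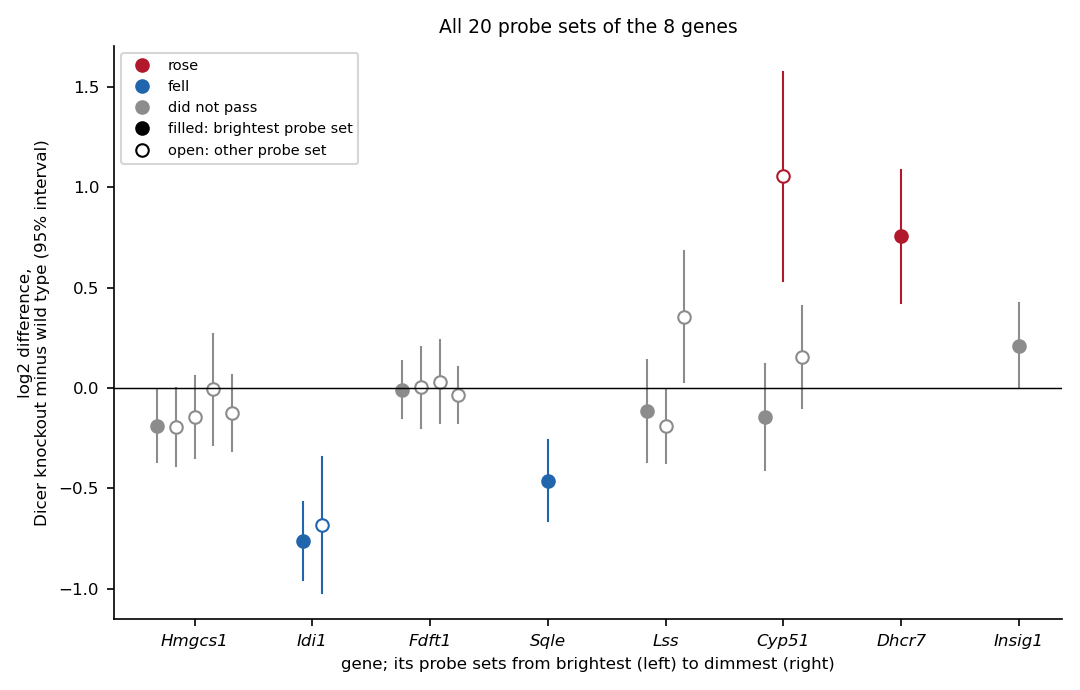
Log2 difference, Dicer knockout minus wild type, with its 95% interval (vertical axis) for all 20 probe sets of the 8 genes (horizontal axis, brightest probe set of a gene at the left); colours give the outcome of the test and filled points the brightest probe set. Both Idi1 probe sets lie below 0, all Fdft1 probe sets lie near 0, and the 3 Cyp51 probe sets spread between −0.15 and 1.05.

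The first number of the array title is shared by both genotypes for numbers 24 and 27, and the labels do not say what it stands for. Within number 24 (Dicer knockout array 2 and wild-type array 1) the difference was −0.96 for Idi1, −0.29 for Sqle and 0.43 for Dhcr7. Within number 27 (Dicer knockout array 4 and wild-type array 2) it was −0.89 for Idi1, −0.49 for Sqle and 1.03 for Dhcr7. All 3 called genes kept their direction within both numbers, with 1 array per genotype in each. Their groups do not overlap, so any such pair had to have this direction, and these pairs are no separate check. The same holds for Cyp51 probe set 1422533_at, which differed by 1.001 and 0.965. Insig1, whose groups overlap, differed by 0.18 and −0.03.

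Around their group means the 8 genes did not move as a block. Over the 28 pairs of genes, the correlation of deviations from the group means across the 8 arrays had a median of 0.11 and ran from −0.71 to 0.61, as a description of arrays that share amplification and normalisation. It was highest for Fdft1 with Lss (0.61) and for Sqle with Cyp51 (0.58), and 20 of the 28 values were above 0.

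With 13 other measured genes from the enzyme lists, 20 genes were available, of which 4 rose, 4 fell and 12 did not pass (40%, against 21% of all genes). The 20 include Ggps1, which rose and acts in a branch away from sterols. They also include Erg28, which did not pass and is a scaffold, not an enzyme. The median difference of the 20 was −0.02, and the median absolute difference 0.27, against 0.16 over all genes. In the mevalonate and prenyl part, 5 genes beside the members were measured. Mvd, which makes isopentenyl diphosphate just ahead of Idi1, read 7.97, 8.04, 7.69 and 7.49 in the Dicer knockout arrays, against 8.38, 8.20, 8.18 and 8.396 in the wild-type arrays. The groups did not overlap and Mvd fell by 0.49 on the log2 scale (limma adjusted p = 0.026). It no longer passed without Dicer knockout array 3 or 4 or without wild-type array 1 or 4 (limma adjusted p = 0.0727, 0.0523, 0.063 and 0.0715). The other Mvd probe set, 1417303_at, also differed by −0.49, but its groups overlapped and it did not pass (limma adjusted p = 0.0798). Fdps, which builds farnesyl diphosphate, averaged 7.84 in Dicer knockout and 8.19 in wild type, a difference of −0.35 that did not pass (limma adjusted p = 0.102). Mvk and Pmvk, the kinases of the mevalonate part, differed by −0.02 and 0.24 and did not pass. Their means lie within the range of the Y-linked probe sets, though above the second highest of them (5.30).

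Ggps1, which diverts farnesyl diphosphate to the geranylgeranyl chain used to anchor small GTPases, went the other way. It read 8.43, 8.49, 8.61 and 8.31 in the Dicer knockout arrays, against 7.50, 7.27, 7.30 and 7.17 in the wild-type arrays, with no overlap. It rose by 1.15 ± 0.0943 (2.22-fold, limma adjusted p = 6.52e-05), and a second probe set, 1419506_at, rose by 1.97 (3.91-fold, limma adjusted p = 0.000142). The means of 1419506_at were 8.11 in Dicer knockout and 6.14 in wild type, and the wild-type mean lies within the range of the Y-linked probe sets. The brightest probe set rose by 1.21 without wild-type array 1 (limma adjusted p = 7.46e-05). Its other 2 probe sets, 1419805_s_at and 1419505_a_at, differed by −0.03 each and did not pass, so its probe sets did not move alike.

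Of the enzymes after lanosterol, 8 genes beside the members were measured. Msmo1, which removes the C-4 methyl groups, read 8.62, 8.97, 8.79 and 8.74 in the Dicer knockout arrays, against 9.89, 9.997, 9.63 and 10.04 in the wild-type arrays. Every Dicer knockout array was below every wild-type array, and Msmo1 fell by 1.11 on the log2 scale (SE 0.11, 0.463 times the wild-type signal, limma adjusted p = 0.000179). Its second probe set, 1459627_at, averaged 4.11 in Dicer knockout and 4.04 in wild type and did not pass. The brightest probe set fell by 1.11 without wild-type array 1 (limma adjusted p = 0.00066). Nsdhl and Hsd17b7, which act beside Msmo1 in the same removal, rose. Hsd17b7 read 12.20, 11.65, 11.94 and 12.20 in the Dicer knockout arrays, against 11.66, 11.08, 10.96 and 11.15 in the wild-type arrays, where wild-type array 1 met the lowest Dicer knockout array.

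The Hsd17b7 rise was 0.78 (1.72-fold, limma adjusted p = 0.0126), or 0.93 without wild-type array 1 (limma adjusted p = 0.00281), and its probe set 1448865_at rose by 0.66 with no overlap (limma adjusted p = 0.00126). Its probe sets 1417871_at and 1440057_at differed by 0.34 and −0.01 and did not pass, and within title number 24 the brightest probe set differed by −0.01. Nsdhl rose by 0.29 at the edge of the threshold (limma adjusted p = 0.0498), and no longer passed in 10 alternative fits (adjusted p up to 0.122), among them the fit without wild-type array 1 (0.111). The remaining genes after lanosterol did not pass. Tm7sf2 and Lbr, both sterol reductases, differed by 0.54 (limma adjusted p = 0.0897) and −0.02. Ebp, the sterol isomerase, Sc5d, the desaturase ahead of Dhcr7, and Erg28, a scaffold of the demethylation complex, differed by 0.25, 0.23 and 0.05.

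**Figure D3:**
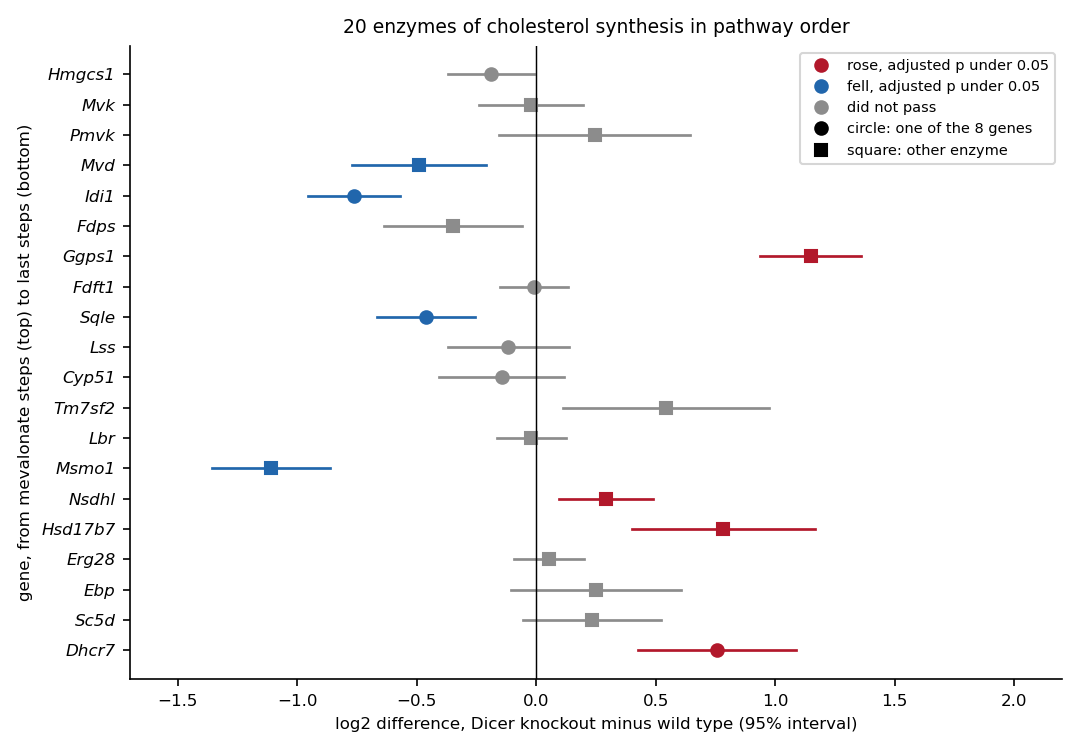
Log2 difference, Dicer knockout minus wild type, with its 95% interval (horizontal axis) for the brightest probe set of 20 genes, from the mevalonate steps at the top to the last steps at the bottom. Circles are among the 8 genes and squares are other genes of the enzyme lists. Of the squares, Ggps1 acts in a branch away from sterols and Erg28 is a scaffold, not an enzyme. Mvd, Idi1, Sqle and Msmo1 lie below 0 and Ggps1, Nsdhl, Hsd17b7 and Dhcr7 above it, and the other 12 did not pass.

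Of the genes that sense sterols and control SREBP, 10 were measured, of which 1 rose and 5 fell (60%, against 21% of all genes), with a median difference of −0.20. Srebf2, the SREBP gene that mainly drives cholesterol synthesis, averaged 8.30 ± 0.0718 in Dicer knockout and 8.19 ± 0.169 in wild type (SD, n = 4 each) and did not pass (difference 0.11, limma adjusted p = 0.477). Its other probe set differed by −0.24 (limma adjusted p = 0.0613). Scap, the escort of SREBP, differed by −0.05 (limma adjusted p = 0.762). Srebf1, which mainly serves fatty acid synthesis, fell by 0.29 on the log2 scale (limma adjusted p = 0.0364), and is named here after its value was seen because it completes the count. Without wild-type array 1, 4 genes of this list fell, and Srebf1 was the one that no longer passed.

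Insig2, the partner of Insig1 in holding SREBP, read 8.57, 8.31, 7.96 and 8.23 in the Dicer knockout arrays, against 8.99, 8.59, 8.98 and 9.07 in the wild-type arrays. It fell by 0.64 on the log2 scale (limma adjusted p = 0.014), with a difference of −0.61 without wild-type array 1 (limma adjusted p = 0.0362). Its other 2 probe sets also fell, by 0.51 and 1.16, the last of them within the range of the Y-linked probe sets. Insig1 and Insig2 thus stood on opposite sides of 0, with Insig1 not passing. Rnf139, a ubiquitin ligase bound to INSIG proteins, fell by 0.86, with means of 11.96 ± 0.237 in Dicer knockout and 12.82 ± 0.127 in wild type (SD, n = 4 each, limma adjusted p = 0.00132). It fell by 0.913 without wild-type array 1 (limma adjusted p = 0.00212). Its second, dimmer probe set differed by −0.11 and did not pass.

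The proteases that release SREBP in the Golgi moved in opposite directions. Mbtps1, the first to cut, read 8.02, 7.97, 7.67 and 7.89 in the Dicer knockout arrays, against 9.27, 8.86, 8.86 and 8.96 in the wild-type arrays, and fell by 1.10 on the log2 scale (limma adjusted p = 0.000242). It fell by 1.005 without wild-type array 1 (limma adjusted p = 0.000317). A dim probe set, within the range of the Y-linked ones, fell by 0.55 and the remaining one differed by 0.03. Mbtps2, the second to cut, averaged 12.33 ± 0.113 in Dicer knockout and 11.84 ± 0.0772 in wild type (SD, n = 4 each) and rose by 0.49 (1.41-fold, limma adjusted p = 0.00273), or by 0.47 without wild-type array 1 (limma adjusted p = 0.00845). Mylip, the ubiquitin ligase that removes lipoprotein receptors from the cell, read 8.66, 9.53, 9.43 and 9.13 in the Dicer knockout arrays, against 9.73, 10.35, 10.58 and 10.14 in the wild-type arrays, and fell by 1.01 on the log2 scale (limma adjusted p = 0.0119). Mylip fell by 1.17 without wild-type array 1 (limma adjusted p = 0.00612). For these 3 genes the groups did not overlap.

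Of the genes for uptake of lipoprotein cholesterol and its release in lysosomes, 9 were measured, of which 1 rose, 2 fell and 6 did not pass (33.3%, against 21% of all genes). Scarb1, the receptor that takes cholesteryl esters from high density lipoprotein, read 9.28, 9.14, 8.92 and 9.35 in the Dicer knockout arrays, against 10.26, 10.29, 10.09 and 10.08 in the wild-type arrays. The groups were clearly apart, and Scarb1 fell by 1.01 on the log2 scale (SE 0.105, 0.497 times the wild-type signal, limma adjusted p = 0.000233). All 3 of its probe sets fell, the others by 0.97 and 1.13, and without wild-type array 1 the brightest fell by 0.981 (limma adjusted p = 0.000878). Scarb1 is also made by cumulus and granulosa cells, whose markers were lower in the same arrays, and their part in its fall was not tested.

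Cd36, a scavenger receptor related to Scarb1, read 9.79, 9.62, 9.31 and 9.56 in the Dicer knockout arrays, against 10.09, 10.33, 10.51 and 10.36 in the wild-type arrays. It fell by 0.75 on the log2 scale (limma adjusted p = 0.00254), with a difference of −0.825 without wild-type array 1 (limma adjusted p = 0.00216), and all 3 of its probe sets fell. Vldlr, a receptor for lipoproteins that carry apolipoprotein E, read 8.93, 9.36, 8.81 and 9.24 in the Dicer knockout arrays, against 8.20, 7.28, 7.60 and 7.15 in the wild-type arrays. All Dicer knockout arrays were above all wild-type arrays, with wild-type array 1 the highest of its group. Vldlr rose by 1.53 ± 0.22 (2.88-fold, limma adjusted p = 0.00143), or by 1.74 without wild-type array 1 (limma adjusted p = 0.000209), and 5 of its 6 probe sets rose. Of those that rose, 1438258_at, 1435893_at and 1451156_s_at have both means within the range of the Y-linked probe sets. The wild-type mean of 1417900_a_at, 5.93, also lies within it. The related receptors Lrp8 and Lrp1 differed by −0.04 and −0.11, and Npc1, Npc2 and Lipa, which release cholesterol from lysosomes, differed by −0.19, 0.01 and −0.03. None of these 5 passed, nor did Npc1l1. Npc1 varied widely within both groups (SD 0.58 in Dicer knockout and 0.99 in wild type, n = 4 each). Its 95% interval of −1.22 to 0.84 leaves a large change in either direction possible.

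**Figure D4:**
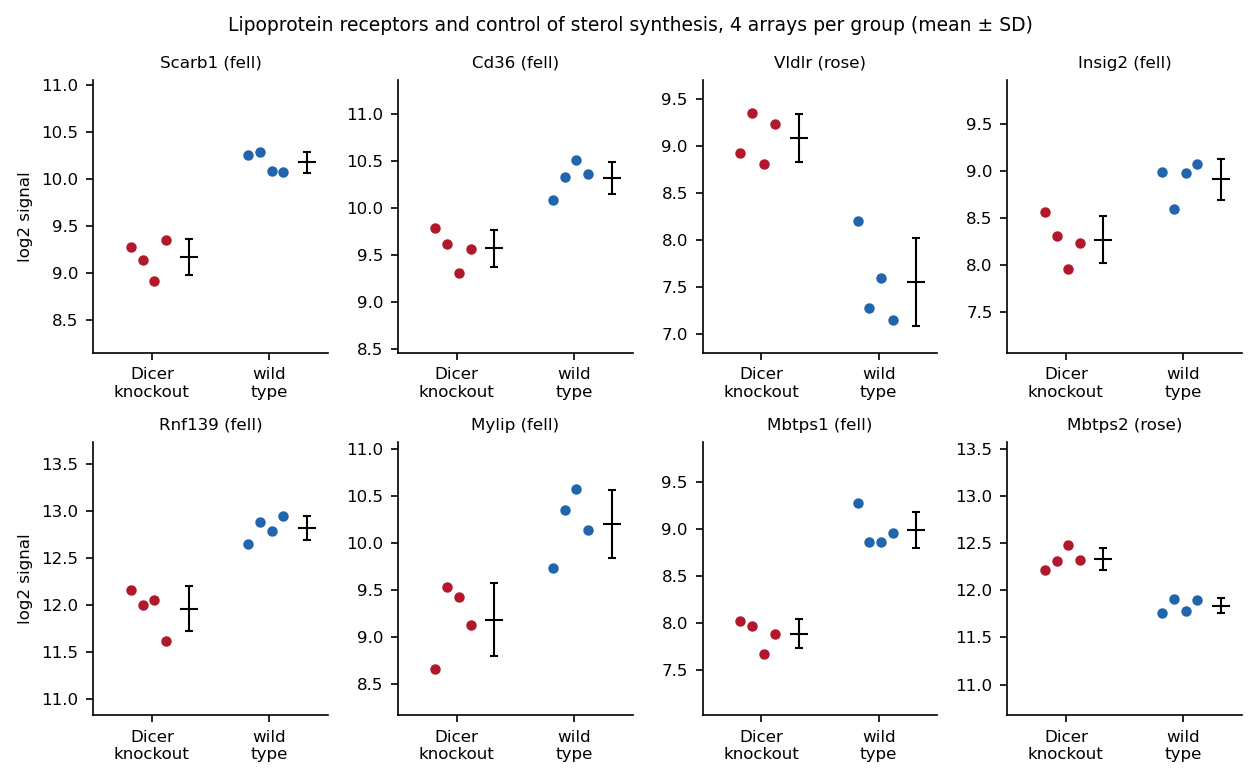
Deposited log2 signal (vertical axis, the same span in every panel) of the brightest probe set of 3 lipoprotein receptors and 5 genes that control sterol synthesis or receptors; points are single arrays, 4 of Dicer knockout (left) and 4 of wild type (right), and black marks are the mean ± SD. Scarb1, Cd36, Insig2, Rnf139, Mylip and Mbtps1 lie lower, and Vldlr and Mbtps2 higher, in all 4 Dicer knockout arrays.

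Of the genes for cholesterol efflux, esters and transport, 11 were measured, of which 1 rose and 2 fell (27.3%, against 21% of all genes). Osbp, a sterol carrier between membranes, rose by 0.43 (limma adjusted p = 0.0115), or by 0.498 without wild-type array 1 (limma adjusted p = 0.00552). Nceh1, an esterase that frees stored cholesterol, fell by 0.64 on the log2 scale, with means of 11.11 ± 0.202 in Dicer knockout and 11.74 ± 0.0718 in wild type (SD, n = 4 each, limma adjusted p = 0.00271), with a difference of −0.625 without wild-type array 1 (limma adjusted p = 0.00833). Nceh1 probe set 1455227_at also fell, by 0.73 (limma adjusted p = 0.00741). Its bright probe set 1435134_at averaged 10.53 in Dicer knockout and 10.59 in wild type and did not pass (difference −0.06, limma adjusted p = 0.665). Abcg1, which exports cholesterol, fell by 0.42 on the log2 scale (limma adjusted p = 0.019), and narrowly missed the threshold without Dicer knockout array 2 or 4 or wild-type array 3 (limma adjusted p = 0.0505 in each). It fell by 0.45 without wild-type array 1 (limma adjusted p = 0.0285). Fatty acid synthesis and desaturation, the other branch that SREBP factors drive, gave 0 genes that rose and 1 that fell of 11 (9.09%, against 21% of all genes). The gene that fell was Scd2, a desaturase, by 0.85 on the log2 scale (limma adjusted p = 0.0327). It did not pass without Dicer knockout array 2, 3 or 4 or wild-type array 1 or 4 (adjusted p of 0.0681 to 0.0884). Scd2 probe sets 1415823_at and 1415824_at differed by −0.11 and −0.19 and did not pass. Acly and Elovl6, named here after their values were seen, did not pass at their brightest probe sets. Acly fell at 1451666_at and 1425326_at, by 0.45 and 0.36 (limma adjusted p = 0.0196 and 0.0221), and not at its others. Elovl6 fell only at the dim 1417403_at, by 0.46 (limma adjusted p = 0.0318).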

How the data were processed

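The deposited matrix holds 1 column per Affymetrix MOE430 v2 array with log2 signals that the authors made with RMA (background correction, normalisation across arrays and summary of probes into probe sets) and Partek, per the submitters' processing notes; the versions of both are not given in the sources used here. Because RMA gives arrays like distributions, a change in total RNA is not seen, and low signals are compressed. The array files name no genome build. Of 45101 probe sets, 64 controls were left out; of the other 45037, 34945 had 1 gene symbol in the platform annotation, 932 several and 9160 none listed, and 34741 matched the RefSeq gene table of GRCm38.p6. The matrix had 0 missing values and 0 columns of other samples.

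Groups came from the genotype label. Dicer knockout minus wild type was estimated for all 45037 probe sets by lmFit and eBayes of limma 3.58.1 (R 4.3.3), without covariates and with Benjamini-Hochberg adjustment, and adjusted p under 0.05 counted as passing. Single values were also tested by exact permutation over 70 arrangements of the arrays. The fit was tested on simulated data. Each array is a different mouse per the labels, so p-values set the difference against the spread between arrays. That spread holds differences between mice together with those from stripping and amplifying each pool of oocytes. The number of arrays limits the precision. The 8 genes and all lists were chosen with earlier results of these data known.

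Named were all probe sets of the 8 genes, every measured gene of the enzyme lists, and Srebf2, Scap, Scarb1, Vldlr and Dicer1 whatever their p. In each other list at most the 4 genes of lowest p that passed in each direction were named. Some genes of the lists are not reported here. Other settings tried were removal of probe sets below the median level, quantile scaling, subtraction of array medians, a trended robust variance and weights per array. Also tried were a random block for the number that opens the title code, leaving out each array, and averaging all probe sets per gene. A last setting left out probe sets with a letter suffix, such as _a_at, _s_at or _x_at. The matrix gives no detection calls, so the level of Y-linked probe sets in these females is given as context. Figures were drawn with matplotlib 3.10.9.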

Additional observations from a re-analysis of the deposited data

Results flagged for a closer look

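Among 96 groups of 4 arrays examined over the 20 probe sets of the 8 genes and the other named genes, 6 had 1 array far from the other arrays of its group, where chance gives about 1 in 20, or 4.8. Hmgcs1 probe set 1433446_at read 11.24 in Dicer knockout array 1, against 10.76 to 10.81 in the other Dicer knockout arrays. Insig1 read 10.46 in Dicer knockout array 3, against 10.30 to 10.33 in the other Dicer knockout arrays. Sqle read 10.80 in wild-type array 3, against 10.51 to 10.54 in the other wild-type arrays, and without this array it fell by 0.39 on the log2 scale and still passed. Wild-type array 1 gave the other 3: Fdft1 probe set 1438918_at read 6.17, against 6.50 to 6.52 in the other wild-type arrays, Pmvk read 6.63, against 5.93 to 5.996, and Erg28 read 10.81, against 10.91 to 10.93.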

How the results depend on the processing

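Sqle, Idi1, Dhcr7 and Cyp51 probe set 1422533_at kept their direction and passed in every alternative that measured them. Leaving out 1 array at a time gave −0.496 to −0.394 for Sqle, −0.827 to −0.728 for Idi1 and 0.665 to 0.878 for Dhcr7. With probe sets above the median level, 1 member probe set rose instead of 2, since Cyp51 1422533_at is below it. With probe sets averaged per gene, 2 members rose, Cyp51 stood at 0.354, Lss at 0.0162, the member median at 0.00674, Mvk at 0.0771 and Srebf2 at −0.0651, 1 later enzyme rose and 2 fatty acid genes fell. Leaving out probe sets with a letter suffix removed the brightest probe set of Msmo1 and every probe set of Scarb1. The falls of these genes were therefore not measured in that fit. Msmo1 is left with its dim probe set (0.0626), and Fdft1 stood at 0.00335. The counts were 0 later enzymes that rose, 0 that fell, 0 mevalonate enzymes that fell, 1 uptake gene that fell and 2 fatty acid genes that fell. With medians subtracted, array weights or the title number as a block, 1 later enzyme rose, since Nsdhl was lost. Fdft1 1448130_at stood at −0.0259, −0.0147 and −0.00300 in these fits, and Hmgcs1 1433446_at at 0.0437 with quantile scaling. Leaving out 1 array moved small differences across 0: Fdft1 1448130_at −0.0461 to 0.0482, 1438322_x_at −0.0343 to 0.0125 and 1438918_at −0.0515 to 0.0649, Hmgcs1 1433446_at −0.123 to 0.0376, and Mvk −0.107 to 0.028. It also gave 1 to 2 later enzymes that rose, 0 to 1 mevalonate enzymes that fell, 1 to 2 efflux genes that fell, and 0 to 1 fatty acid genes that rose and that fell. Hsd17b7 did not pass with its probe sets averaged (adjusted p = 0.0759) or without probe sets with a letter suffix (0.155). The array weights were lowest for wild-type array 1 (0.718). Srebf1, whose one probe set has a letter suffix, was lost with quantile scaling and in 6 of the 8 fits that left out 1 array.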
